A study of Sus scrofa with 48 samples.

Results

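The comparison was that of both diets within the low RFI line, the line of pigs selected for low residual feed intake (RFI). It took the 24 liver samples of that line, out of 48 in the whole study, and their titles assigned 12 pigs to the high-fat high-fiber diet (HF) and 12 to the low-fat low-fiber diet (LF). RFI is the part of feed intake that growth and body fatness do not account for, so that a low value marks an efficient animal. The low and the high RFI line were purebred Large White pigs separated by 8 generations of selection. All 24 animals were barrows (castrated males) of the low line, penned individually and fed ad libitum. They received their diet from 74 days of age and were slaughtered 2 h after the last meal. Each array carried the liver RNA of 1 pig, labelled with 1 dye. Fat and fiber were raised together in HF, so an effect of fat and an effect of fiber cannot be told apart, and both lines came from 1 selection experiment.

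After a starch-rich meal the liver takes up glucose, burns part of it and turns part into fatty acids. Insulin acts on this programme through SREBF1 and glucose through MLXIPL (ChREBP), whereas dietary polyunsaturated fatty acids are known to lower it. Fatty acids are ligands of PPARA, the nuclear receptor that drives genes of fatty acid oxidation and ketone production. Fermented fiber supplies short-chain fatty acids to the liver through the portal vein.

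A level is given here as the log2 intensity of a probe relative to the median of the tested probes on the same array, so 0 is that median. A difference is the log2 level on HF minus that on LF with its standard error (SE), and FC is the fold change it stands for. Genes were represented by 1 probe, and levels of different genes were not compared. Because whole liver was profiled, fewer cells of a type and less RNA per cell cannot be told apart.

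Neither of the technical measures compared differed detectably between diets. The median intensity per array ran from 56.2 to 108.5, and on the log2 scale it averaged 6.29 ± 0.27 (SD, n = 12) in HF pigs and 6.21 ± 0.20 in LF pigs (2-sided permutation test, P = 0.419). The share of probes well above background was 71.6% ± 2.3 in HF pigs and 72.3% ± 2.9 in LF pigs (permutation P = 0.539). Each array correlated with the others at a median between 0.981 and 0.986, and no array stood apart. Each of the 6 slides held 2 arrays of each group, and each of the 2 scan days held 6 of each group. All 11 hepatocyte markers of the list on the array were detected.

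Differences between diets called at unadjusted cut-offs were spread over many genes and were small in most of them. Of 43098 probes tested, 1223 (2.84%) were differentially expressed at P under 0.01 with FC over 1.1, the cut-offs of the study's methods. Of these, 636 (1.48%) were over-expressed and 587 (1.36%) under-expressed in HF pigs, with a median FC of 1.28 and 1.27, respectively. FC was above 1.5 for 77 of the former and 91 of the latter, and above 2 for 7 and 12. Counted by gene, 280 of 10534 genes (2.66%) were called, 157 (1.49%) higher and 123 (1.17%) lower on HF. At P under 0.05, 4408 probes (10.2%) differed. After Benjamini-Hochberg adjustment of limma's P values over all probes, 1 probe (0.00232%) remained at 5%, at an adjusted P (P-BH) of 0.0353, and P-BH of every other probe was 0.12 or more. The calls below therefore rest on the unadjusted cut-offs, and among so many probes an unknown share of them arises by chance.

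The probe that passed the adjustment was that of CNRIP1, which encodes a protein that binds the tail of the cannabinoid receptor CB1. Its level ran from 1.92 through a median of 2.34 to 2.52 in HF pigs, and from 1.71 through 1.86 to 2.06 in LF pigs. All 12 HF pigs lay above the LF median and 11 lay above the highest LF pig. The difference was 0.42 (SE 0.06, FC 1.34, P = 8.2e-07), with 0.40 on scan day 1 and 0.44 on scan day 2. A second CNRIP1 probe differed by −0.07 and was not called, so the effect was carried by 1 of 2 probes. CNRIP1 was named after its value was seen.

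No gene separated the diets completely. The HF and LF pigs overlapped in every one of the 10534 genes (0% without overlap), while all 12 HF pigs lay on the same side of the LF median in 175 genes (1.66%), 91 of them among the 280 called. Every called gene had the same direction on both scan days, against 6258 of all 10534 genes, and 191 of the 280 had the same direction on 6 of 6 slides, against 679 of all genes. These shares follow in part from the call itself, which used the same pigs.

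The gene lists described below are to be read against all genes, of which 4804 were higher and 5730 lower on HF. Members of a list were measured in the same pigs and move together, so that a count of members is not a count of independent results. The median of each list was smaller than the SD between pigs of its score (the median deviation of its genes from their means), except for the list of polyunsaturated fatty acid desaturation and elongation, where it was −0.15 against an SD of 0.14.

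**Figure D1:**
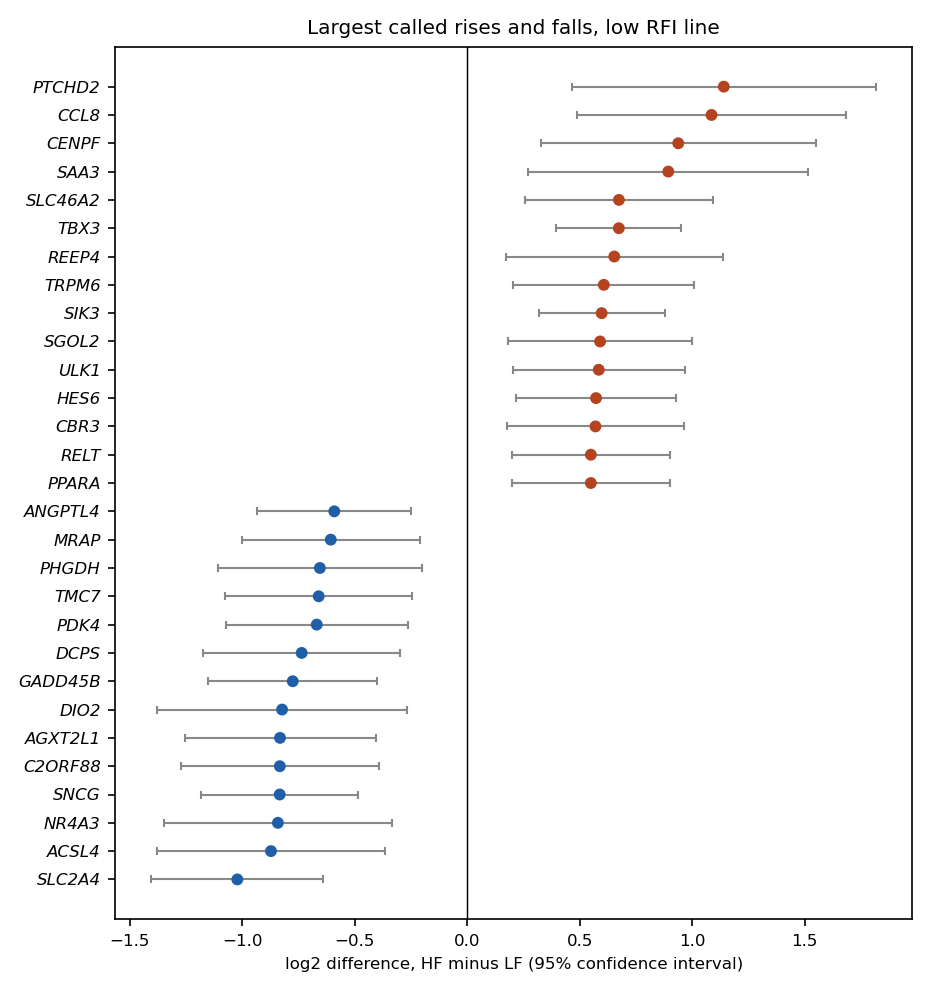
Differences between HF and LF (log2, horizontal axis) for the strongest called rises and falls described here, taken among genes well above background in every pig of at least 1 diet. Points are estimates from 12 pigs per diet and bars are 95% confidence intervals. SLC2A4 has the lowest estimate, −1.02, the PTCHD2 estimate rests on 8 of 12 LF pigs above background, and no interval reaches 0 because the genes were chosen by the test.

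Glucose handling held the largest fall among the genes named by rule. Transcripts of SLC2A4, the insulin-responsive glucose transporter GLUT4, were lower in HF pigs. SLC2A4 ranged from 0.33 through a median of 1.16 to 2.15 on HF and from 1.36 through 2.26 to 2.96 on LF. All 12 HF pigs were below the LF median and 9 were below the lowest LF pig, with a difference of −1.02 (SE 0.19, FC 2.03, P = 9.96e-06). The 4 SLC2A4 probes all pointed down, from −1.02 to −0.21, yet only the brightest was called. GLUT4 is best known from muscle and fat, and the levels of markers of those tissues are given further on.

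PDK4, the kinase that holds pyruvate out of the tricarboxylic acid cycle, also fell. Its level was 4.16, 5.67 and 6.14 (lowest, median and highest) on HF against 5.41, 6.10 and 6.81 on LF, a difference of −0.67 (SE 0.20, FC 1.59, P = 0.00224) with 10 of 11 probes called. 1 HF pig lay above the LF median of PDK4.

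Of 41 measured genes of glycolysis, gluconeogenesis and glycogen, 2 were called, both down and PDK4 among them, and none was called up. The median difference of the list was −0.07, beside −0.01 over all genes, and 29 members were lower on HF. PCK1, which commits carbon to gluconeogenesis, differed the other way by 0.74 (SE 0.34, P = 0.0381) on 6 probes that all pointed up, and was not called. TXNIP, a glucose-induced thioredoxin-binding protein, fell by 0.31 on the log2 scale (SE 0.09, P = 0.00268, 6 of 11 probes called). TXNIP was picked after its value was seen.

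**Figure D2:**
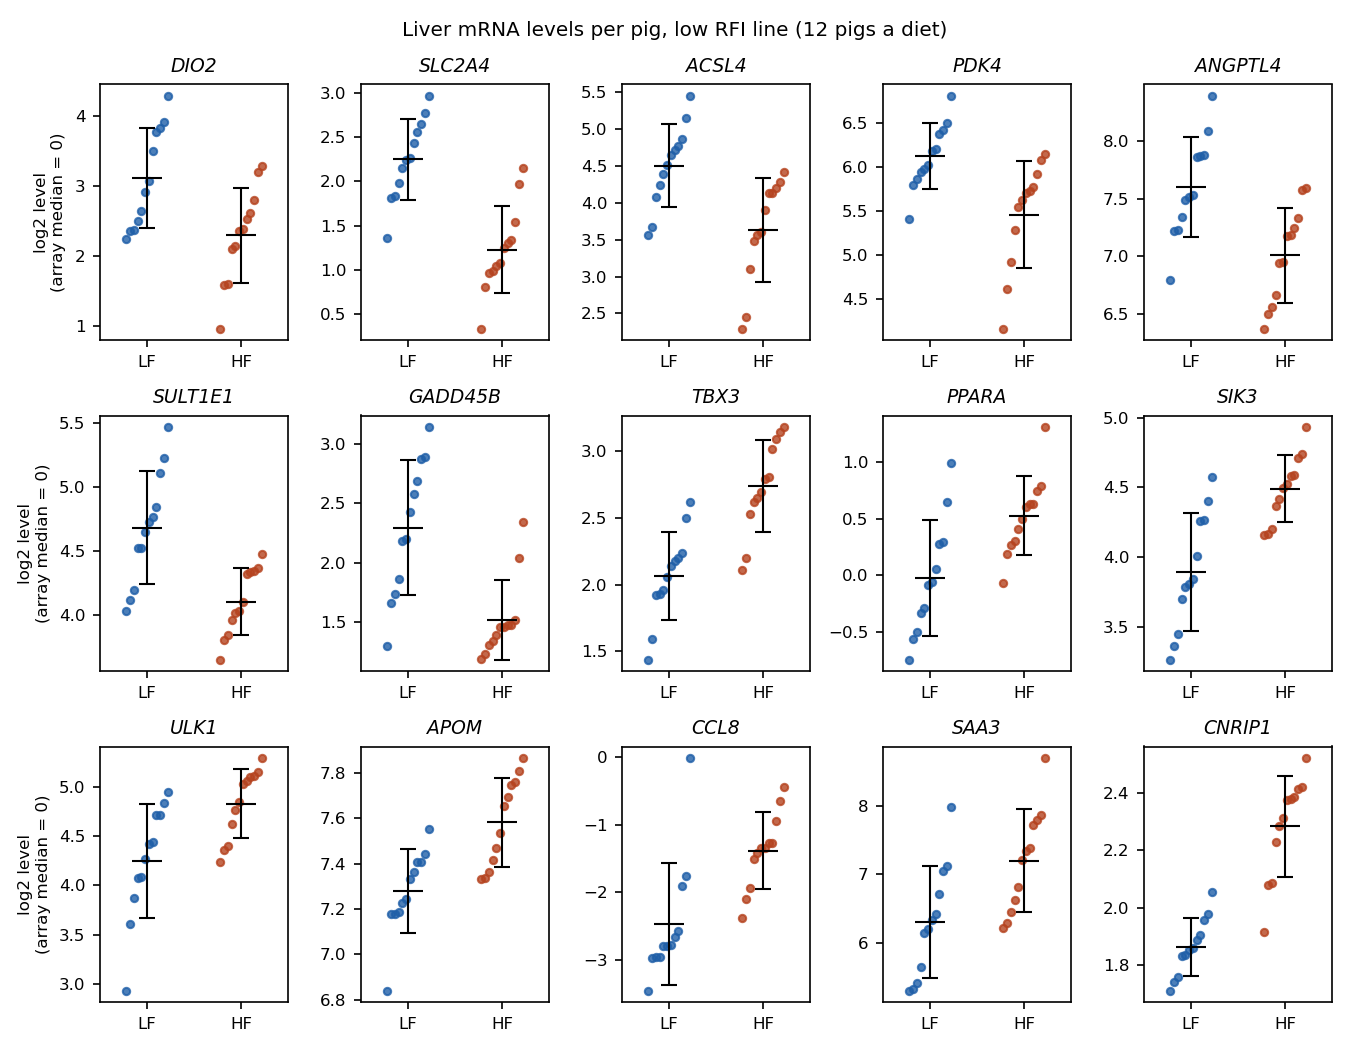
Levels of 15 genes (log2 intensity relative to the array median, vertical axes) in the 12 HF and 12 LF pigs of the low RFI line. Each point is 1 pig, drawn in order of value, with the mean and SD as bars. The groups overlap in every panel, most narrowly in CNRIP1, where 11 of 12 HF pigs exceed the highest LF pig.

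No gene of fatty acid synthesis was called. Of 21 measured members, 17 were lower on HF, 2 of them at P under 0.05. The median of the list was −0.11. Over all genes, 545 (5.17%) were higher and 499 (4.74%) lower at P under 0.05. SCD, the Δ9-desaturase that makes oleate, ranged from 5.53 through 7.24 to 8.33 on HF and from 6.27 through 8.17 to 9.38 on LF. The difference was −0.87 (SE 0.33, FC 1.83, P = 0.0137), and all 11 SCD probes lay between −1.0 and −0.87. SCD thus varied by several log2 units among pigs on the same diet, and 1 HF pig lay above the LF median.

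FASN, the fatty acid synthase, differed by −0.68 (SE 0.33, P = 0.0519), and its 5 probes ran from −0.95 to −0.68. For ACACA, the acetyl-CoA carboxylase ahead of it, the brightest probe differed by −0.54 (P = 0.0371), and another of its 4 probes was called down. SREBF1, the transcription factor through which insulin acts on these genes, differed by −0.16 (P = 0.0516), while 2 dimmer probes of 4 were called down. These lipogenic genes shared a direction, while none of their brightest probes was called.

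ACSL4, an acyl-CoA synthetase that prefers arachidonic acid, was the called member among 10 genes of polyunsaturated fatty acid desaturation and elongation. Its level ran from 2.29 through 3.76 to 4.42 on HF and from 3.56 through 4.57 to 5.44 on LF. No HF pig exceeded the LF median, and the difference was −0.87 (SE 0.25, FC 1.83, P = 0.00154). All 9 of 9 ACSL4 probes were called, between −1.35 and −0.62. The related ACSL1 and ACSL3 differed by −0.44 (P = 0.0381) and −0.47 (P = 0.0364) and were not called. The desaturases FADS1 and FADS2 differed by 0.18 and 0.14, without a call. The list's median was −0.15, with 8 of 10 members lower.

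PPARA rose, while ANGPTL4 and PDK4, which are among its known targets, fell. PPARA had levels of −0.06, 0.55 and 1.31 (lowest, median and highest) on HF against −0.74, −0.07 and 0.99 on LF. The difference was 0.55 (SE 0.17, FC 1.46, P = 0.00361), and all 12 HF pigs were above the LF median. It rested on 1 of 4 PPARA probes, and the lowest of the others differed by 0.02. The PPARA call was lost when its probes were averaged (0.26, limma P = 0.0499). Among 33 measured genes of PPARA, peroxisomal oxidation and fasting, PPARA was the call up, and the calls down were PDK4 and ANGPTL4.

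ANGPTL4, a secreted inhibitor of lipoprotein lipase, ran from 6.37 through 7.06 to 7.59 on HF and from 6.80 through 7.52 to 8.39 on LF. It fell by 0.59 on the log2 scale (SE 0.17, FC 1.51, P = 0.00153), with 5 of 5 probes called, and 2 HF pigs lay above the LF median. CPT1A, the gate of mitochondrial fatty acid import, differed by 0.26 (P = 0.32). The fasting hormone gene FGF21 differed by −0.38 (P = 0.366). Of 23 genes of mitochondrial fatty acid oxidation, 0 were called, and the median was −0.07 with 18 members lower.

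In lipid storage and export, PNPLA2 and APOM rose. PNPLA2, the adipose triglyceride lipase, was 3.47, 3.85 and 4.43 (lowest, median and highest) on HF against 3.04, 3.56 and 3.83 on LF, a difference of 0.37 (SE 0.11, FC 1.29, P = 0.00334) found by 1 of 3 probes. The PNPLA2 call was lost when its probes were averaged (0.22, limma P = 0.0263). PNPLA2 was the only called gene of 29 of triglyceride metabolism, 19 of which were lower on HF. APOM, the carrier of sphingosine-1-phosphate on high-density lipoprotein, ran from 7.33 through 7.59 to 7.86 on HF and from 6.84 through 7.29 to 7.55 on LF. The difference was 0.30 (SE 0.08, FC 1.23, P = 0.000892), both probes were called, and all 12 HF pigs were above the LF median. Among 21 apolipoproteins and lipoprotein genes, APOM and ANGPTL4 were the calls, in opposite directions, and 15 members were lower. The lipid droplet protein PLIN2 and the fatty acid transporter CD36 differed by −0.02 and −0.10, without a call.

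Cholesterol and bile acid genes gave 0 calls. The list of 19 cholesterol synthesis genes had 10 higher and 9 lower members and a median of 0.00. HMGCS1, an early enzyme of the pathway, differed by −0.13, and SREBF2, the sterol-responsive transcription factor, by −0.05. In the 17 genes of sterol sensing and efflux the median was −0.08.

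Of 22 genes of bile acid synthesis and transport, 15 were higher on HF, with a median of 0.07. CYP7A1, the rate-limiting enzyme, differed by 0.25 (P = 0.572), and CYP39A1, an oxysterol hydroxylase, by 0.20 (P = 0.0296). CYP8B1, which directs synthesis to cholic acid, differed by −0.34. The nuclear receptors NR1H3 (LXRα) and NR1H4 (FXR) differed by 0.04 and 0.11.

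**Figure D3:**
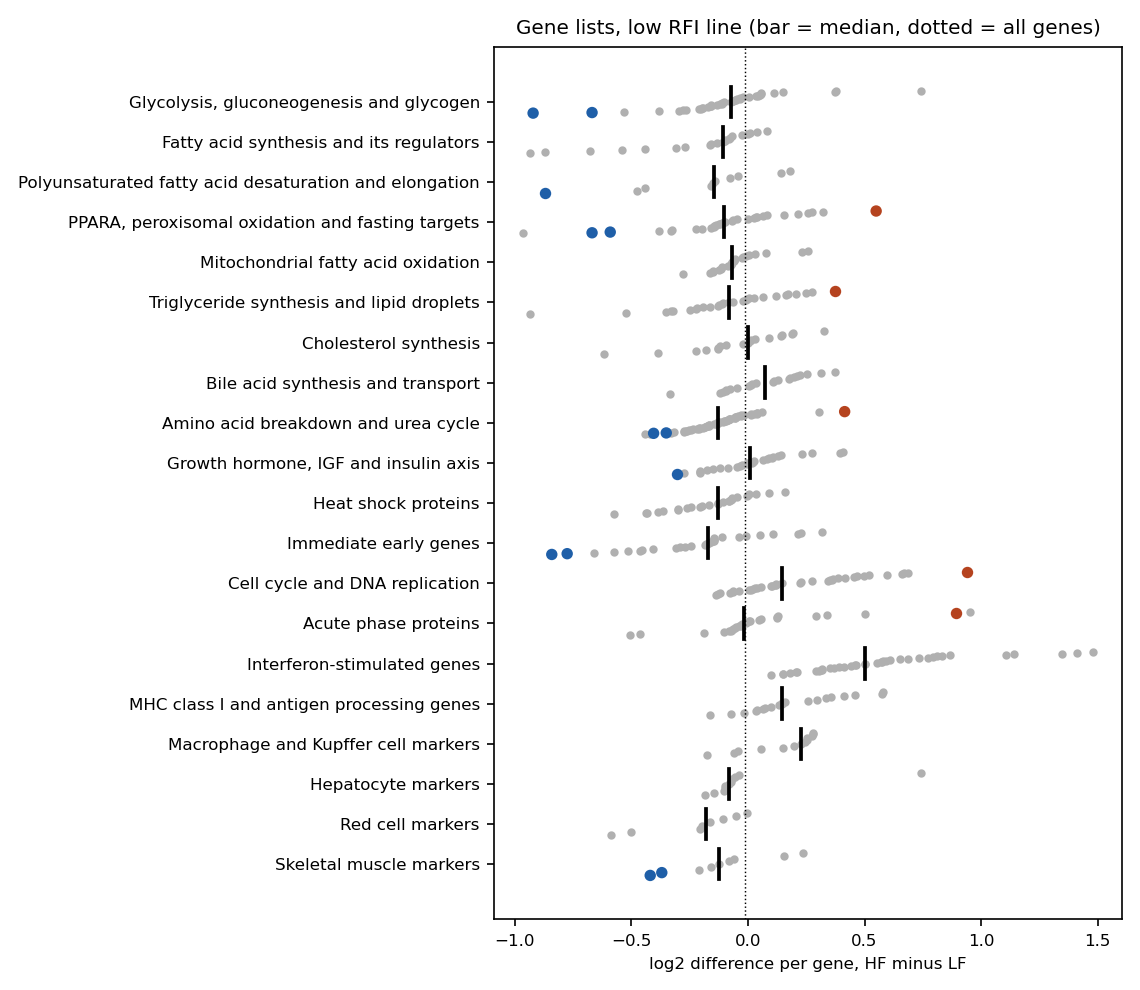
Differences between HF and LF (log2, horizontal axis) of the genes of 20 lists. Each point is a gene, coloured points are called genes, short bars mark the median of each list, and the dotted line marks the median of all genes at −0.01. Interferon-stimulated genes stand to the right with a median of 0.50 and no coloured point, and immediate early genes stand to the left with a median of −0.17.

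In amino acid metabolism, HPD and GLDC were called down and IVD was called up, out of 59 measured genes. Of the 59, 50 were lower on HF, 9 at P under 0.05, with a median of −0.13. HPD, the second enzyme of tyrosine breakdown, ran from 3.76 through 4.45 to 4.76 on HF and from 4.36 through 4.85 to 5.12 on LF. The difference was −0.40 (SE 0.11, FC 1.32, P = 0.00149), no HF pig exceeded the LF median, and 2 of 5 probes were called, while the highest of the others differed by 0.14. Averaging the HPD probes lost the call (−0.21, limma P = 0.0151). GLDC, the decarboxylase of the glycine cleavage system, fell by 0.35 on the log2 scale (SE 0.11, P = 0.00386, 3 of 4 probes called). IVD, which oxidises isovaleryl-CoA from leucine, rose by 0.41 (SE 0.13, P = 0.00345, 2 of 3 probes called). GOT1, the cytosolic aspartate aminotransferase, differed by −0.42 (P = 0.0281) and was picked after its value was seen.

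PHGDH, the entry enzyme of serine synthesis, fell by 0.65 on the log2 scale (SE 0.22, FC 1.57, P = 0.00647), with 2 of 3 probes called. The PHGDH call was lost with slide as a block (P = 0.0125) and in the fit of all 48 arrays (P = 0.0143). Its level was 4.11, 5.82 and 6.47 (lowest, median and highest) on HF against 5.51, 6.37 and 6.96 on LF, and 2 HF pigs lay above the LF median. AGXT2L1, a phospholyase that degrades phosphoethanolamine, ran from 1.33 through 2.17 to 3.16 on HF and from 2.37 through 3.11 to 3.77 on LF. It fell by 0.83 on the log2 scale (SE 0.21, FC 1.78, P = 0.000454) on the single probe that measured it. On HF, 6 pigs were below the lowest LF pig.

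Hormone and growth factor genes showed calls in single members. DIO2, the deiodinase that activates thyroxine, ran from 0.96 through 2.37 to 3.28 on HF and from 2.24 through 3.0 to 4.29 on LF. It fell by 0.82 on the log2 scale (SE 0.27, FC 1.77, P = 0.00535), and both probes were called. SULT1E1, the sulfotransferase that inactivates estrogens, ran from 3.65 through 4.06 to 4.47 on HF and from 4.03 through 4.69 to 5.46 on LF. No HF pig exceeded the LF median of SULT1E1, and the difference was −0.58 (SE 0.14, FC 1.49, P = 0.000453). MRAP, an accessory protein of the melanocortin receptors, fell by 0.61 on the log2 scale (SE 0.19, P = 0.00414).

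GHR, the growth hormone receptor, was the called member of 28 genes of the growth hormone, IGF and insulin axis. Its level ran from 5.27 through 5.77 to 6.41 on HF and from 5.93 through 6.07 to 6.61 on LF, a difference of −0.31 (SE 0.11, FC 1.24, P = 0.00918), with 4 of 7 probes called and 8 HF pigs below the lowest LF pig. The GHR call was lost in 7 of 13 other settings, with P up to 0.018. Other members split evenly, with a median of 0.01 and 14 of 28 higher. IGF1, the main hepatic product of growth hormone action, differed by −0.05 and the binding protein gene IGFBP2 by 0.27. The insulin receptor gene INSR differed by 0.23 (P = 0.0155), and GRB14, an inhibitor of that receptor, by −0.20 (P = 0.0176), neither called. HFE2 (hemojuvelin), which drives hepcidin production, fell by 0.48 on the log2 scale (SE 0.14, P = 0.00174, 2 of 4 probes called).

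Among regulators, TBX3, SIK3 and ULK1 rose. TBX3 encodes a T-box transcriptional repressor, and its level ran from 2.11 through 2.74 to 3.18 on HF and from 1.43 through 2.1 to 2.62 on LF. All 12 HF pigs lay above the LF median and 9 above the highest LF pig. The difference was 0.67 (SE 0.13, FC 1.6, P = 3.69e-05), 6 of 6 probes were called, and HF was higher on 6 of 6 slides. SIK3, a salt-inducible kinase, was 4.16, 4.51 and 4.93 (lowest, median and highest) on HF against 3.26, 3.82 and 4.58 on LF. Its difference was 0.60 (SE 0.14, FC 1.51, P = 0.000174) on a single probe, with all 12 HF pigs above the LF median. ULK1, the kinase that starts autophagy, rose by 0.58 (SE 0.19, P = 0.00418) on 1 of 3 probes. Averaging the ULK1 probes lost the call (limma P = 0.0112).

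Further called rises concerned HES6, a transcriptional cofactor of the HES family (0.57), and HLF, a clock-controlled transcription factor (0.47). NFE2L2, the antioxidant regulator NRF2, rose by 0.33 (SE 0.09, P = 0.00117). On the list of NRF2 targets and antioxidant genes, 0 of 37 measured members were called, and their median was 0.03. CBR3, a carbonyl reductase that this list does not hold, rose by 0.57. TRPM6, a magnesium channel, rose by 0.61 and RELT, a receptor of the TNF receptor family, by 0.55. REEP4, a protein that shapes the endoplasmic reticulum, rose by 0.65 and the solute carrier gene SLC46A2 by 0.67, the former losing its call in 7 of 13 other settings (P up to 0.0253). The SLC46A2 probe was dim, well above background in 12 HF and 11 LF pigs, and its difference was 0.20 with normexp background correction, without a call. PTCHD2 was dimmer still, well above background in 12 HF but 8 LF pigs, so its call rested in part on values near background and the size of its difference was uncertain (1.14, or 0.31 with normexp).

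The remaining large falls were those of SNCG, C2ORF88 and DCPS. SNCG (gamma-synuclein) ran from −4.64 through −3.51 to −2.62 on HF and from −3.14 through −2.70 to −1.98 on LF, and 9 HF pigs were below the lowest LF pig. The difference was −0.83 (SE 0.17, FC 1.78, P = 4.72e-05), and both probes were called. The SNCG probe was dim, well above background in 11 HF and 12 LF pigs, and the difference shrank to −0.39 without background subtraction and to −0.29 with normexp. C2ORF88, which anchors protein kinase A at membranes, also fell by 0.83 on the log2 scale (SE 0.21, P = 0.000635). DCPS, an enzyme of mRNA cap breakdown, fell by 0.74 on the log2 scale (SE 0.21, P = 0.00197), with −0.31 on scan day 1 and −1.16 on scan day 2.

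Immediate early genes, which respond rapidly to stimuli without new protein synthesis, were mostly lower on HF. Of 30 measured genes, 25 were lower, 10 at P under 0.05, and GADD45B and NR4A3 were called. The list's median was −0.17, beside −0.08 in the high RFI line. GADD45B, a stress-induced regulator of growth arrest, ran from 1.19 through 1.46 to 2.34 on HF and from 1.30 through 2.31 to 3.14 on LF. The difference was −0.77 (SE 0.18, FC 1.71, P = 0.000258), with 2 of 2 probes called. NR4A3, an orphan nuclear receptor, fell by 0.84 on the log2 scale (SE 0.25, P = 0.00214, 3 of 5 probes called). JUN, picked after its value was seen, differed by −0.58 (P = 0.0348) and MYC by −0.51 (P = 0.0156), without a call. In 27 heat shock and chaperone genes, 23 were lower with a median of −0.13 and 0 calls, among them DNAJB1 (−0.43, P = 0.0135). The score of this list was nevertheless above 0 in 6 HF and 5 LF pigs. The log2 of its summed level had a median of 10.315 on HF and 10.248 on LF.

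Of 17 clock genes, HLF was the called member, and the median was 0.03. NR1D1 (REV-ERBα), a repressor of the clock, differed by 0.80 (P = 0.0309) and was not called.

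Among genes of cell division, CENPF, a kinetochore protein of dividing cells, was called. Of 37 measured genes of cell cycle and DNA replication, 30 were higher on HF, 8 at P under 0.05, and the median was 0.15. It ran from −1.71 through −0.20 to 0.72 on HF and from −2.43 through −1.42 to 0.36 on LF, a difference of 0.94 (SE 0.30, FC 1.92, P = 0.00406) with 3 of 4 probes called. The median deviation of the list's genes from their means was above 0 in 8 of 12 HF pigs and in 1 of 12 LF pigs, and that LF pig had the highest value of all, 0.66. SGOL2, which protects cohesion of sister chromatids, rose by 0.59 (SE 0.20, P = 0.00649, 3 of 3 probes called). CCNB1 (0.67, P = 0.012) and CDK1 (0.69, P = 0.0174), the pair that drives entry into mitosis, were not called.

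Immune genes included calls in both directions. CCL8, a monocyte-attracting chemokine, ran from −2.38 through −1.35 to −0.44 on HF and from −3.46 through −2.79 to −0.01 on LF. All 12 HF pigs were above the LF median, although the highest pig of all was an LF pig. The difference was 1.09 (SE 0.29, FC 2.12, P = 0.000949), called for 1 of 2 probes. At this low level the CCL8 difference depended on the background correction and was 0.46 with normexp. SAA3, an acute phase serum amyloid A, was 6.22, 7.28 and 8.69 (lowest, median and highest) on HF against 5.31, 6.27 and 7.97 on LF. It rose by 0.89 (SE 0.30, FC 1.86, P = 0.00667) with 5 of 6 probes called, and the call was lost (P = 0.045) when all 48 arrays were fitted together. SAA1 differed by 0.95 (P = 0.0125), without a call. The acute phase list as a whole did not share this direction, with 12 of 28 genes higher and a median of −0.02.

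CXCL8, a chemokine for neutrophils, fell by 0.34 on the log2 scale (SE 0.10, P = 0.00198) at a low level, and its call was lost in 3 of 13 other settings, those with another treatment of background (P up to 0.0196). CFP (properdin), which stabilises the alternative complement pathway, rose by 0.32 (SE 0.11, P = 0.00774), the only call of 50 complement and coagulation genes. The CFP call was lost with slide as a block (P = 0.0103). CD247, the zeta chain of the T cell receptor complex, rose by 0.51 (SE 0.16, FC 1.42, P = 0.00371), with 3 of 3 probes called and 11 HF pigs above the LF median. It was the only call of 23 T and NK cell markers, whose median was 0.04. XCL1, a lymphocyte chemokine, differed by 0.44 (P = 0.0136), with all 12 HF pigs above the LF median, and was not called.

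Interferon-stimulated genes had the widest spread between pigs of all lists. All 39 measured members were higher on HF on average, with a median of 0.50, and 0 were called, 2 reaching P under 0.05. The differences ran from 0.10 for TRIM26 to 1.48 for ISG15 (SE 0.84, P = 0.0891), a ubiquitin-like protein. The antiviral MX1 went from 4.01 through 6.84 to 8.77 on HF and from 4.32 through 5.11 to 8.39 on LF (difference 0.87, SE 0.62, P = 0.175), and USP18 differed by 1.11 (SE 0.62, P = 0.0856). The median deviation of the list was above 0 in 7 of 12 HF pigs and in 3 of 12 LF pigs, and spanned −0.78 to 1.39 on HF and −0.97 to 1.32 on LF. The diet difference was smaller than the SD between pigs of 0.79. In the high RFI line the median was 0.12. MX1, USP18, ISG15 and TRIM26 were picked after their values were seen.

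**Figure D4:**
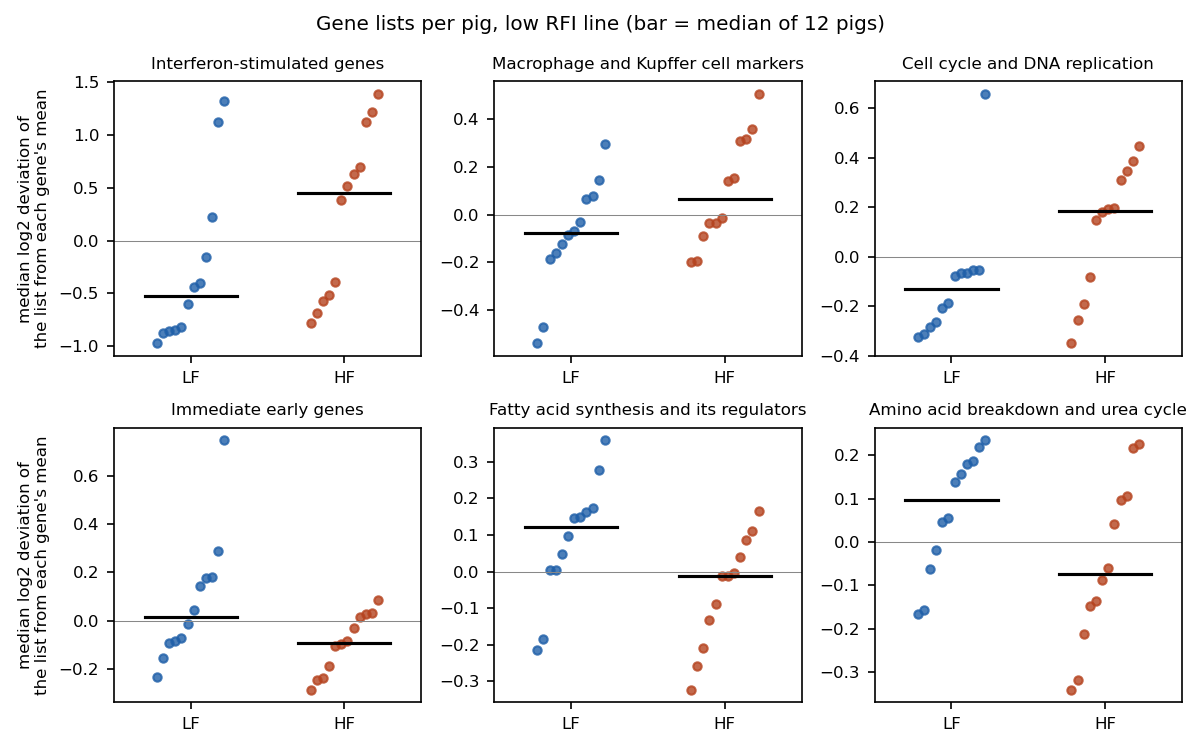
Median deviation (log2) of the genes of 6 lists from each gene's mean over the 24 pigs, 1 point per pig, with the median of the 12 pigs of each diet as a bar. For interferon-stimulated genes, 7 HF and 3 LF pigs lie above 0 and the ranges of both diets nearly coincide, whereas for cell cycle genes 8 HF pigs and 1 LF pig lie above 0.

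Markers of other cell types of the liver gave few calls. For 13 macrophage and Kupffer cell markers, 10 were higher on HF, 3 at P under 0.05, with a median of 0.23 and 0 calls. The log2 of their summed level nevertheless ran from 9.20 through 9.39 to 9.63 on HF and from 9.10 through 9.41 to 9.68 on LF. The median of this sum was thus slightly lower on HF. VSIG4, a complement receptor of Kupffer cells, differed by 0.28 (P = 0.0222) and C1QA by 0.28 (P = 0.032). Both MHC lists leaned up, with medians of 0.14 for class II (9 of 10 higher) and 0.15 for class I (17 of 20 higher), and TAP1, the peptide transporter of class I, differed by 0.46 (P = 0.0423). BLNK, a B cell adaptor, differed by 0.57 (P = 0.0124), and the 9 B cell markers had a median of 0.03. The summed T and NK cell level ran from 8.33 through 8.65 to 8.88 on HF and from 8.57 through 8.70 to 8.89 on LF. The part of these cells in the immune results was not tested.

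PDGFRA was the only called gene of 17 stellate cell and fibroblast markers, up by 0.36 (P = 0.00825), and the list's median was −0.0044. Its probe was well above background in 9 HF and 4 LF pigs, and the call was lost in 5 of 11 other settings, slide as a block among them, with P up to 0.536. Of the 17 markers, 8 were higher and 9 lower on HF. ACTA2, a brighter member of the list, differed by −0.43 (P = 0.0255) with all 8 probes lower, and was not called. The 15 endothelial, 10 cholangiocyte and 9 neutrophil markers gave 0 calls and medians of 0.07, 0.09 and −0.11. All 8 red cell markers were lower on HF, with a median of −0.18 and 0 calls, among them HBB (−0.50, P = 0.0337) and AHSP (−0.59, P = 0.0289). Their summed level ran from 4.81 to 6.61 on HF and from 6.16 to 6.80 on LF.

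Markers of muscle and fat were examined beside SLC2A4. Of 9 measured skeletal muscle markers, ACTA1 (−0.42, P = 0.00772) and MYH1 (−0.37, P = 0.00495) were called down, the former on 1 of 12 probes. The muscle list's median was −0.12, and its summed level ran from 4.37 through 4.98 to 5.16 on HF and from 4.85 through 5.25 to 5.66 on LF. MYH2, MYH4 and TTN, which define muscle, were not tested. The 8 adipocyte markers had a median of −0.04 and 0 calls, with 3 higher and 5 lower on HF, from −0.55 to 0.74. The score of the list was above 0 in 5 HF and 10 LF pigs. Summed levels ran from 5.53 to 7.93 on HF and from 5.16 to 7.45 on LF. PCK1 (0.74), the highest of these 8, is on the hepatocyte list as well, so the adipocyte sum does not measure fat tissue alone. The part of muscle or fat tissue in the SLC2A4 value was not tested. Hepatocyte markers were lower in 10 of 11 genes with a median of −0.08, 0 calls, and a summed level from 13.003 to 13.59 on HF and from 13.21 to 13.59 on LF. ALB, the albumin gene, differed by −0.10.

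Detoxification genes gave few calls. Of 35 cytochrome P450 genes 0 were called, with a median of −0.03, and of 17 transferases of glutathione, glucuronide and sulfate SULT1E1 was the call. GSTT1 (−0.44, P = 0.0108) and FMO1 (−0.36, P = 0.0117), enzymes of xenobiotic conjugation and oxidation, were not called. Of 12 genes of short-chain fatty acid sensing and use, 0 were called, and the median was −0.0019. Cytosolic ribosomal protein genes were lower in 65 of 78 members, by a median of −0.05 with 0 calls. In the respiratory chain, 1 of 78 genes, NDUFA3 (−0.29), was called.

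Few genes passed the test for a diet effect that differed between the lines. An interaction of diet and line, fitted over all 48 arrays, was called for 153 of 43098 probes (0.355%) and 36 of 10534 genes (0.342%). After Benjamini-Hochberg adjustment, limma called 0 interactions at 5%, with a smallest P-BH of 1.0. At P under 0.05 there were 1003 of 43098 probes, a smaller share than that cut-off alone would give without any interaction. The same held for the 0.355% called at P under 0.01. Of the 153 probes, 54 were also called for diet within the low line, beside 1223 (2.84%) of all 43098 probes. The interaction is the diet difference in the low line minus that in the high line. Both calls therefore contain the same low-line difference from the same pigs. Overlap between them is built in and was not an independent result. In 12 genes both calls met: ANKHD1-EIF4EBP3, C15ORF23, C1ORF57, CA5A, GPC4, JARID2, MAP1LC3B2, RAE1, RELT, SPOCK3, TBX3 and TMC7, most of them named after their values were seen.

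TMC7, a transmembrane channel-like protein gene, had the smallest interaction P of all genes. In the low line it ran from 1.58 through 2.81 to 3.55 on HF and from 2.76 through 3.46 to 4.09 on LF. It fell by 0.66 on the log2 scale (SE 0.20, P = 0.00318) there and differed by 0.45 (SE 0.21) in the high line, an interaction of −1.11 (SE 0.30, P = 0.000502). Within the low line the difference was −1.09 on scan day 1 and −0.23 on scan day 2. TBX3 rose by 0.67 in the low line against −0.07 (SE 0.16) in the high line (interaction 0.75, SE 0.23, P = 0.00202). IVD likewise rose by 0.41 in the low line, and its interaction of 0.54 had P = 0.0133, short of the cut-off.

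Of the other genes with the smallest interaction P, PDLIM1, a cytoskeletal adaptor, differed by −0.26 in the low line and by 0.52 in the high line (P = 0.000529). PRDM8, a transcriptional regulator, differed by −0.37 and 0.30 (P = 0.00115). IGFBP1, the insulin-suppressed binding protein of IGFs, differed by −0.15 and 0.48 (P = 0.00198). None of these 3 genes was called for diet in the low line. RELT rose by 0.55 in the low line, with an interaction of 0.67 (P = 0.00623). The diet call of RELT was lost when its probes were averaged (0.31, limma P = 0.0543).

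For the metabolic genes named above, the interaction was not called. The interaction of SLC2A4 had P = 0.763, with −0.93 (SE 0.22) in the high line. ACSL4 differed by −0.67 (SE 0.30), AGXT2L1 by −0.79, ANGPTL4 by −0.44 and CNRIP1 by 0.31 (SE 0.07) in the high line. PDK4 differed by −0.03 (SE 0.18) there, for an interaction of −0.64 (SE 0.26, P = 0.0155), DIO2 by −0.04 (interaction P = 0.0798) and GHR by 0.01 (interaction P = 0.0641), none of which passed the cut-off. FADS2, called in neither comparison, differed by 0.80 in the high line (interaction P = 0.0474).

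**Figure D5:**
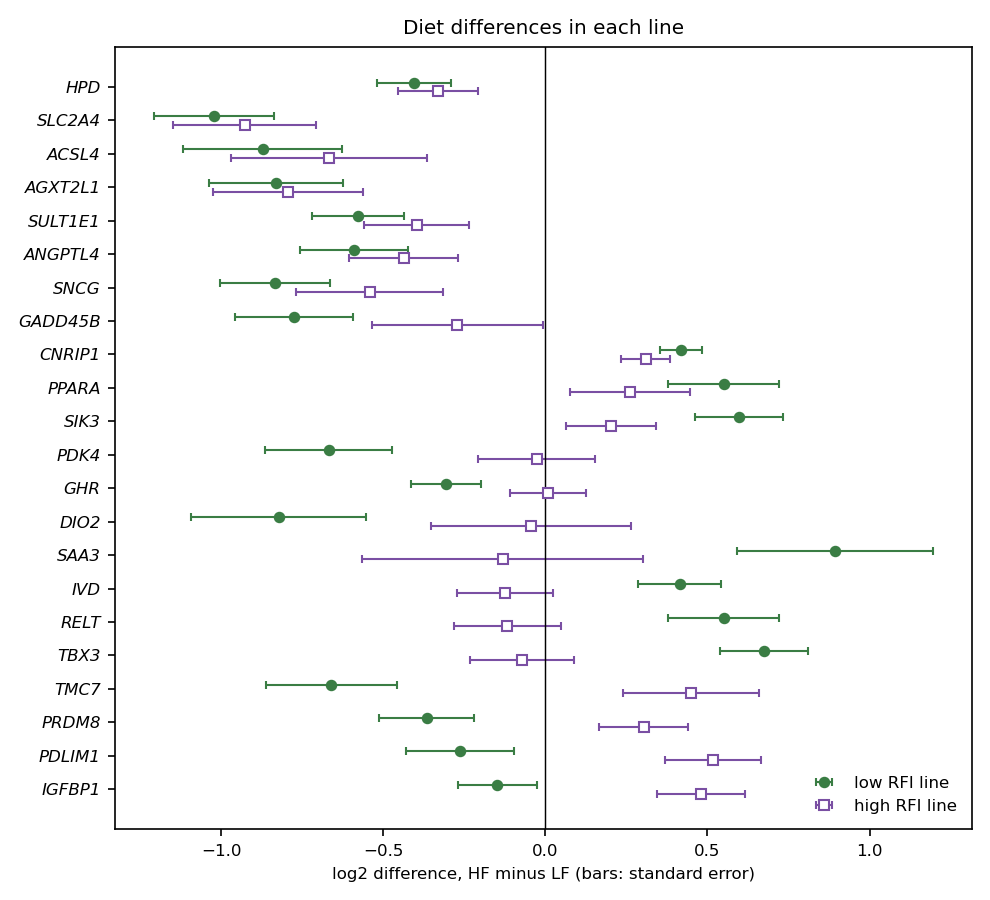
Diet difference (HF minus LF, log2, horizontal axis) of 22 genes in the low RFI line (filled circles) and the high RFI line (open squares), with standard errors as bars and 12 pigs per group. SLC2A4 has nearly the same value in both lines, whereas TMC7 and TBX3 part, with interactions of −1.11 and 0.75.

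Probes of the same gene mostly agreed. Of the 145 called genes with at least 2 tested probes, all probes pointed the same way in 130. A further 126 genes were called only through a probe other than the brightest and are not among the 280.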

How the data were processed

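Liver RNA of 24 pigs (12 per diet) was hybridised to single-colour Agilent arrays of 60305 probes. Per the file headers and the study's methods, the authors scanned and extracted spot intensity with Agilent software, which subtracted background within each array (processed signal). The deposited log2 values were median signals less a constant per array, and served as an alternative. The submitters' processing notes name R 2.10.0.

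Here, log2 processed intensity was centred on each array's median over the 43098 probes well above background on at least 12 of the 24 arrays. Outlier spots (106 in tested probes) were set missing. Because the number of arrays limits precision, no count-based interval applies. Diet was tested with limma 3.58.1 (lmFit, eBayes; R 4.3.3) within the line. Calls required P under 0.01 and FC over 1.1, with Benjamini-Hochberg counts beside them. The interaction was fitted over 4 groups of 12. Scripts were tested on simulated data. Tables and figures used Python 3.11.15, pandas 2.3.3, scipy 1.17.1 and matplotlib 3.10.9.

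Symbols came from probe accessions matched to RefSeq gene names, or else from the scanner output, and may be old. They covered 21588 tested probes and 10534 genes, each represented by its probe of highest mean level. The other tested probes have no symbol in the tables used here. Named were the 15 largest rises and falls among called genes well above background in all pigs of a diet, called or leading members of 35 pathway and 14 marker lists, the 5 smallest interaction P and a fixed set, of which PKLR was not tested. Some genes that the rule names are not reported here. Genes outside the rule are marked as picked after their values were seen. The comparison, the lists and the rule were chosen with earlier results of these data known. Array intensity was compared by 2-sided permutation tests with 100000 resamples.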

Additional observations from a re-analysis of the deposited data

How the results depend on the processing

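The count of probes called for diet (1223) lay between 1097 and 1412 under 12 other settings and fell to 312 on scan day 1 only and 785 on scan day 2 only, each with 6 pigs per diet, of which 19 were called on both days, 18 in the same direction. When the probes of each gene were averaged, 303 of 10534 genes were called, beside 280. The single probe at Benjamini-Hochberg 5% (limma) became 0 under normexp background correction, median signal without background subtraction, the deposited log2 values, no filter on dim probes, slide as a block, scan day as a block and either scan day alone. The CNRIP1 probe has no value in the deposited table, so the count of 0 there says nothing about it. The interaction count of 153 was 94 with the deposited values and moved by less than 1.5 times in the other alternatives run. Over-expressed probes made up 45.8% to 54.9% of the calls, beside 52.0%.

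Of 48 called genes described with values in the text, 28 kept their call in every setting but the single scan days, on which 9 and 20 kept it, and none changed direction. MYH1 lost its call in 3 of 13 settings. Genes not called that changed sign were FADS1 (−0.0085) and SREBF2 (0.052) with the mean over all probes, PLIN2 (0.083) and CYP7A1 (−0.050) on scan day 1 only, and IGFBP1 (0.092) on scan day 2 only. The causes were not tested. Of 735 list medians, 734 moved by less than the spread between pigs. Dim probes limit PTCHD2, SNCG, SLC46A2, PDGFRA, MYH1, CXCL8, NR4A3, CCL8, C2ORF88 and SGOL2, whose differences moved by over 1.5 times with another background correction. No paired analysis was made, because each pig received 1 diet and the sample titles name no pairs of pigs.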

Other observations

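A few genes split the pigs into separate levels and were picked after their values were seen. GSTA2, a glutathione transferase of the hepatocyte, was at −0.99 and −0.85 (log2 level) in 2 HF pigs and between 7.54 and 9.01 in the other 22 pigs, and both of its probes split the same way. C9, the last component of the complement membrane attack complex, was at 0.073 in 1 LF pig and between 4.95 and 6.40 in the others, again on both probes. PON3, a paraoxonase carried on high-density lipoprotein, was at 3.91 in 1 HF pig and between 7.24 and 8.86 in the others. In the same pig a probe of the neighbouring PON1 was at 3.01, beside 6.29 to 8.08 in the others. EIF4E3, a cap-binding protein, was between 2.93 and 3.45 in 4 pigs, 2 of each diet, and between −1.54 and −0.59 in the other 20. Diet differences of such genes rest on which pigs carry the rare level, and no explanation was tested.

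Further lists gave these values within the low RFI line. Of 42 proteasome genes 0 were called, with a median of −0.03 and 26 lower on HF. The 59 mitochondrial ribosomal protein genes had 43 lower members, 5 of them at P under 0.05, with a median of −0.04 and 0 calls. Collagens and matrix genes had 3 higher and 1 lower member at P under 0.05 among 65, with a median of −0.01 and 0 calls. The 23 retinol genes and the 11 fatty acid uptake genes had 0 calls and medians of −0.0046 and −0.01. Of 65 chemokine and cytokine genes, CCL8 and CXCL8 were the calls, with a median of 0.02. NFE2L2 was the only call of 21 xenobiotic receptors and regulators (median 0.02), PHGDH of 33 endoplasmic reticulum stress genes (median −0.05) and HFE2 of 24 metal and iron genes (median −0.03). Of 40 nuclear receptors, PPARA was called up and NR4A3 down, with a median of −0.03.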
